A study of Mus musculus with 19 samples.

Results

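The 10 genes described here are the transcription factor NRF2 (Nfe2l2), its inhibitor KEAP1 (Keap1) and 8 genes known as NRF2 targets in mouse: Nqo1, Gclc, Gclm, Srxn1, Txnrd1, Osgin1, Cbr3 and Akr1b8. They were chosen by symbol, and each of the 10 matched 1 of the 55416 Ensembl gene lines of the count table. All 10 passed the low-count filter that left 15570 genes for testing. RNA was poly(A)-selected from the livers of C57BL/6 mice in 5 groups. Normal mice were wild type (WT) and received no injection (n = 4). The other mice were WT or IL-6 -/- (called knockout here) and received 2 intraperitoneal injections at an interval of 3 h. These held vehicle (n = 4 per genotype) or 4 mg of furosemide, a loop diuretic (n = 4 WT and 3 knockout), and the liver was collected at 6 h. The furosemide groups carry the name pre-renal azotemia (PRA), meaning that poor renal blood flow lets urea and creatinine accumulate. How the IL-6 allele was made, the age and the sex are not stated in the labels, nor is it stated that replicates are separate animals, so the p-values concern the variation among these libraries alone, part of which could be technical.

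NRF2 is controlled mainly as a protein. In unstressed cells KEAP1 holds it to a CUL3 ubiquitin ligase, which marks it for degradation. When oxidants or electrophiles modify KEAP1, NRF2 accumulates, pairs with a small MAF protein and binds antioxidant response elements of genes for glutathione synthesis, thioredoxin-dependent repair and the reduction of quinones and carbonyls. BACH1, a heme-sensing repressor, occupies the same elements. In liver the pathway is best known for protection against reactive drug metabolites. A transcript level of Nfe2l2 therefore does not measure NRF2 activity, and the target transcripts are its usual readout.

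Library depth was 32073865 to 74041441 gene counts. In these libraries the 10 genes held between 24 counts (Cbr3) and 18753 counts (Osgin1), and Cbr3, with at most 82, was measured least precisely. Levels below are CPM after TMM scaling, fold changes and adjusted p-values come from edgeR's quasi-likelihood test over all 15570 genes with Benjamini-Hochberg adjustment, and the threshold was 0.05. The targeted gene, Il6, had 0 to 5 counts in 18 libraries of either genotype and 16 in knockout PRA replicate 2, so its counts cannot check the genotype labels. The 7 hepatocyte markers summed to between 71947 and 145873 CPM, which fits the tissue label, and none of them was at 0.

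After PRA, Srxn1 and Txnrd1 were higher than after vehicle in both genotypes, and Cbr3 was higher in WT livers. In bulk tissue a change in the number of cells of a type and a change in RNA per cell cannot be told apart. The glutathione genes Gclc and Gclm, the quinone reductase Nqo1 and the aldo-keto reductase Akr1b8 did not pass in any of the 7 comparisons. Transcripts of Nfe2l2 and Keap1 did not pass against vehicle in either genotype and were lower in WT PRA livers than in normal ones. In WT PRA against vehicle 3 of the 10 genes passed, all higher, where 22.1% of all genes tested passed, 9.74% higher and 12.3% lower. The median log2 fold change of the 10 was 0.13, beside -0.03 over all genes. With 10 genes, 3 calls lie near that background, so the count is no result about the group and what follows concerns single genes.

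**Figure D1:**
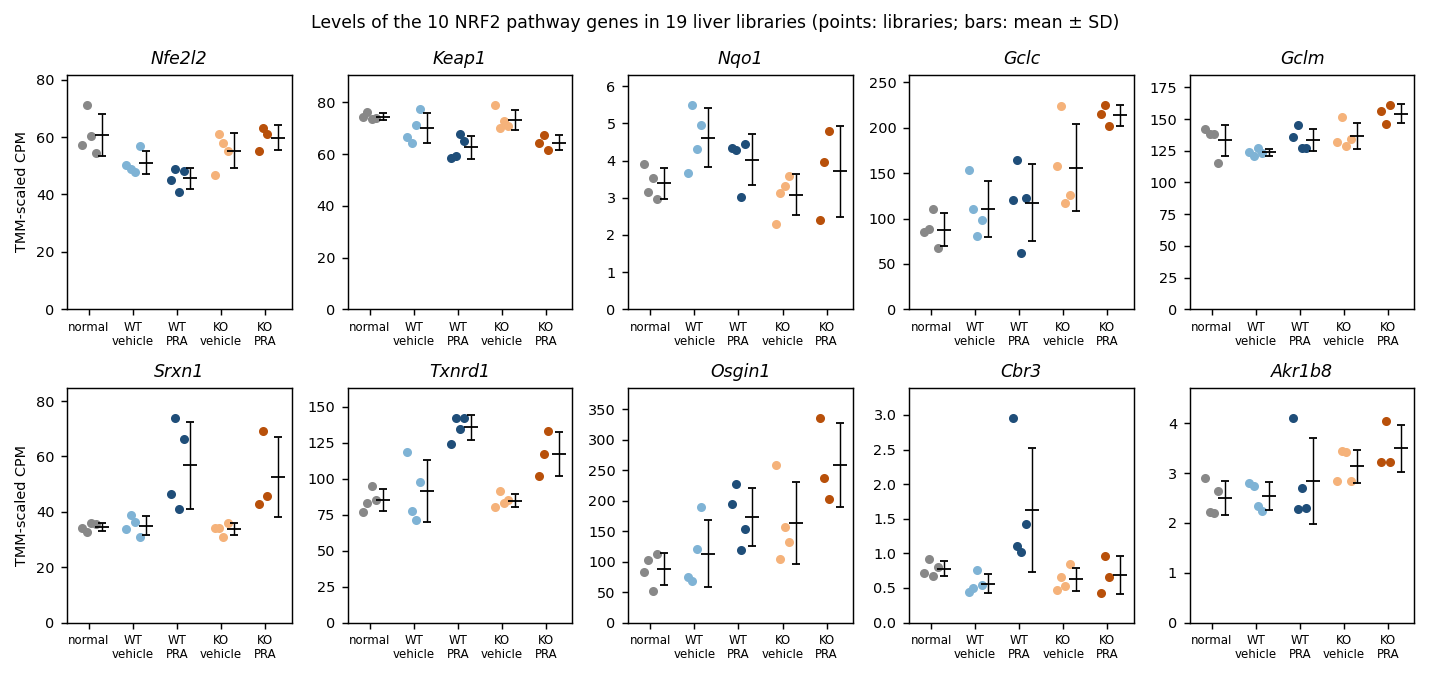
TMM-scaled CPM (y axis, from 0, a separate scale per gene) of the 10 NRF2 pathway genes in the 19 libraries, by group (x axis). Points are libraries and bars are mean ± SD. Srxn1 and Txnrd1 lie higher in the PRA groups of both genotypes, with means of 56.8 and 136 CPM in WT PRA libraries, whereas 1 library at 2.95 CPM stands apart in Cbr3.

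Srxn1 encodes sulfiredoxin, which repairs over-oxidised peroxiredoxins with ATP. Its level was 34.3, 32.8, 35.8 and 35.5 CPM in the normal libraries and 33.8, 39.0, 36.2 and 30.9 CPM after vehicle in WT. WT PRA libraries held 46.3, 73.7, 41.0 and 66.4 CPM. The 4 PRA values all lay above the 8 values of uninjected and vehicle-injected WT livers, and replicates 2 and 4 were the high ones. In the knockout, Srxn1 was at 34.0, 34.0, 30.9 and 35.9 CPM after vehicle and at 42.7, 69.0 and 45.6 CPM after PRA, again with no overlap and with replicate 2 the highest. The rise was 1.63-fold in WT (from 35.0 ± 3.45 to 56.8 ± 15.7 CPM, SD; the log2 fold change was 0.70 ± 0.16, SE, with an edgeR adjusted p of 0.00335) and 1.56-fold in the knockout (33.7 ± 2.05 to 52.4 ± 14.5 CPM, 0.64 ± 0.17, edgeR adjusted p = 0.0141). Without knockout PRA replicate 2 the knockout value was 0.39 with an adjusted p of 0.146, so that call rested on 1 library. The WT call held without any 1 of its 8 libraries (0.55 to 0.83). Red blood cell markers, named here after their values were seen, were high in the same libraries as Srxn1. Their sums were 163, 198, 160 and 203 CPM in WT PRA replicates 1 to 4 and 137 to 148 CPM in WT vehicle libraries. Of the 3 tested, 2 were higher in WT PRA than in vehicle, where 9.74% of all genes tested were higher. In the knockout the sums were 150, 190 and 172 CPM after PRA and 131 to 156 CPM after vehicle, and Slc4a1 was at 0 in WT vehicle libraries. Stellate cell and fibroblast markers ran the other way in WT PRA, at 205, 114, 168 and 96.7 CPM. Reads without a unique alignment made up 16.87%, 19.15%, 16.12% and 18.15% of WT PRA replicates 1 to 4, and 15.7%, 16.65% and 15.56% of the knockout PRA libraries. Their share was 18.7% in knockout vehicle replicate 1, where Srxn1 was at 34.0 CPM. The part of these cells and reads in the Srxn1 result was not tested.

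Txnrd1 encodes cytosolic thioredoxin reductase, a selenoprotein that returns oxidised thioredoxin to its reduced form with NADPH. The normal libraries held 76.8, 83.5, 95.1 and 85.1 CPM. After vehicle the WT libraries held 119, 77.8, 71.4 and 98.0 CPM, and after PRA 124, 142, 135 and 142 CPM. PRA values were narrow and lay above every vehicle value, of which replicate 1 was the highest. Knockout libraries held 80.1, 91.2, 83.0 and 85.1 CPM after vehicle and 102, 117 and 133 CPM after PRA, without overlap. Txnrd1 rose 1.48-fold in WT (from 91.6 ± 21.6 to 136 ± 8.47 CPM, 0.57 ± 0.12 on the log2 scale, edgeR adjusted p = 0.00233) and 1.38-fold in the knockout (84.8 ± 4.73 to 117 ± 15.5 CPM, 0.47 ± 0.13, edgeR adjusted p = 0.0205). The knockout call was lost without knockout vehicle replicate 1 (adjusted p = 0.0524), knockout PRA replicate 2 (0.0585) or knockout PRA replicate 3 (0.107). In the knockout, 2 of the 10 genes passed, Srxn1 and Txnrd1, where 16.3% of all genes tested passed, 7.96% higher and 8.38% lower.

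The response of the pair was compared between genotypes by the interaction, in which the WT log2 response is subtracted from that of the knockout. It was -0.06 ± 0.23 on the log2 scale for Srxn1 (95% interval -0.55 to 0.42, edgeR adjusted p = 0.981) and -0.10 ± 0.18 for Txnrd1 (-0.48 to 0.28, adjusted p = 0.944). No difference between genotypes was detected for either, and the intervals reach from a knockout response much smaller than that of WT to one larger. None of the 10 genes passed the interaction, where 0.475% of all genes tested passed, 0.0385% higher and 0.437% lower, and 1 of the 10 (Cbr3) had an unadjusted p under 0.05, beside 8.94% of all genes. DESeq2 and limma-voom called 0 of the 10 as well.

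The promoter windows of this pair are shown because both genes rose in both genotypes, and that of Gclm because it carries the same kind of motif and did not pass. Each window runs from 250 bases before to 50 bases after a RefSeq start on GRCm38.p6 (the counts were made on GRCm39), written 5′ to 3′ on the gene's strand, and all 3 genes are on the + strand. Capitals mark matches of TGACNNNGC, the core of the antioxidant response element, and of TGANTCA, which includes the AP-1 core, searched on both strands. The motifs did not overlap in these 3 windows. The second motif was chosen after the windows had been read.
Srxn1, chr2:152105274-152105573: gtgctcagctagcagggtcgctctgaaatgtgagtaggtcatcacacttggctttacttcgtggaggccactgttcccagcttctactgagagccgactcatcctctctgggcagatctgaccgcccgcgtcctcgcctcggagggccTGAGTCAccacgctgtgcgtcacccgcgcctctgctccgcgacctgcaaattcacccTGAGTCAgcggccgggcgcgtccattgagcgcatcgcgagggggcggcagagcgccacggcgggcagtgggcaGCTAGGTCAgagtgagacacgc
Txnrd1, chr10:82858956-82859255: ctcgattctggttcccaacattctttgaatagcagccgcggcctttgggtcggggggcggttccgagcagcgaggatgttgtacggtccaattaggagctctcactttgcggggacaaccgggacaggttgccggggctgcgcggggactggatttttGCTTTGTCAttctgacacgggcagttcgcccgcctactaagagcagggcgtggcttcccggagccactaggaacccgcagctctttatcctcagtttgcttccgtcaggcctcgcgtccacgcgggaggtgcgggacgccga
Gclm, chr3:122245307-122245606: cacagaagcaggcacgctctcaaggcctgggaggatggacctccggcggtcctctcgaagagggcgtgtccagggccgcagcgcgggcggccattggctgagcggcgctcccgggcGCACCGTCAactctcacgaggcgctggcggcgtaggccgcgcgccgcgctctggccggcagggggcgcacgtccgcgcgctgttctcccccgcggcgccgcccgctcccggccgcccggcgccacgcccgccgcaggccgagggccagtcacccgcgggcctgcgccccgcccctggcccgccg

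In Srxn1 a TGACNNNGC match, TGACCTAGC on the reverse strand, began 28 bases after the start, and matches of TGANTCA began 102 and 45 bases before it. The nearer of these is followed by gc, so it ends as TGACNNNGC does but has TGAG in place of TGAC. The Txnrd1 window held TGACAAAGC on the reverse strand 92 bases before its start. That is the second of 3 Txnrd1 starts in the RefSeq set, and neither motif was found at the other two. Gene counts cannot tell which start was used. Gclm held TGACGGTGC on the reverse strand 134 bases before its start. Of the 9 member genes with a window (Gclc had none), 4 had a TGACNNNGC match, the fourth being Nfe2l2 itself, with TGACTCCGC 240 bases before its start. Of all 32851 RefSeq windows, 12.4% held TGACNNNGC and 7.81% held TGANTCA, beside 14.1% and 5.48% of the windows of genes tested. Counted by window, 4 (36.4%) and 2 (18.2%) of the 11 member windows held them, too few for more than a description. At least 2 TGANTCA matches, as in Srxn1, were held by 0.460% of all windows. That motif and that number were taken from windows already read, so this share is no test. Osgin1 had 1 TGANTCA match, 97 bases before its start, which on the reverse strand is likewise followed by gc. No match was found in the windows of Cbr3, Keap1, Nqo1 and Akr1b8. A match or its absence describes only the letters of the window, and spellings of the element outside these fixed patterns were not searched.

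Cbr3 encodes carbonyl reductase 3, which reduces carbonyl groups of xenobiotics with NADPH. It was the least abundant of the 10. The normal libraries held 0.711, 0.919, 0.672 and 0.807 CPM, the WT vehicle libraries 0.444, 0.498, 0.754 and 0.545 CPM, and the WT PRA libraries 2.95, 1.11, 1.02 and 1.43 CPM. Every WT PRA value lay above every other WT value, and replicate 1 stood apart. The same library had the highest summed cholangiocyte markers, 107 CPM against 38.5, 45.5 and 39.4 CPM in the other WT PRA libraries. The sums were 26.7 to 67.5 CPM in WT vehicle and 51.3 to 86.8 CPM in normal libraries, where Cbr3 was lower than in WT PRA. In the knockout the highest sums of each group, 60.8 CPM in vehicle replicate 1 and 60.9 CPM in PRA replicate 1, came with the lowest Cbr3. Of those 6 markers 1 was higher in WT PRA than in vehicle, where 9.74% of all genes tested were higher, and none was at 0. This set was named after its values were seen. WT PRA replicate 1 also led its group in hepatocyte (105276 CPM), neutrophil (13.6), stellate cell (205) and T and NK cell sums (1.76). Kupffer cell, monocyte, endothelial, B cell and red blood cell sums were highest in other WT PRA libraries. It had the lowest depth of all 19 libraries, 32073865 gene counts. The part of these traits in the Cbr3 result was not tested. Cbr3 itself was at 0.468, 0.665, 0.530 and 0.842 CPM in knockout livers after vehicle and at 0.428, 0.968 and 0.658 CPM after PRA, so these groups overlapped. In WT livers Cbr3 rose 2.88-fold against vehicle (from 0.560 ± 0.136 to 1.63 ± 0.900 CPM, 1.53 ± 0.32 on the log2 scale, edgeR adjusted p = 0.00173). Leaving out any 1 of the 8 libraries left the call in place (1.10 to 1.69), and 1.10 was the value without WT PRA replicate 1 (adjusted p = 0.0102). In the knockout its value was 0.11 ± 0.36 (95% interval -0.63 to 0.86, edgeR adjusted p = 0.874). The test of the difference did not pass: the interaction was -1.41 ± 0.48 (95% interval -2.42 to -0.41, unadjusted p = 0.00818 and edgeR adjusted p = 0.308). Under PRA the knockout libraries were all below the WT ones, 0.685 ± 0.271 against 1.63 ± 0.900 CPM, but this missed the threshold (-1.24 ± 0.36, edgeR adjusted p = 0.0540). The adjusted p ran from 0.0139 (DESeq2) to 0.111 (replicate block) over the other settings, and was 0.0495 without a low-count filter. In edgeR fits without 1 library it ran from 0.0419 (without knockout PRA replicate 2) to 0.254 (without knockout PRA replicate 1). It also passed without WT PRA replicate 2 (0.0456) or 3 (0.0431). Without WT PRA replicate 1 the value was -0.81 (edgeR adjusted p = 0.179).

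Nqo1 and Akr1b8 are the other reductases. Nqo1 encodes the quinone reductase that is the standard marker of NRF2 activity, and Akr1b8 an aldo-keto reductase with close relatives in the genome, among which the counting may have divided reads. Nqo1 was at 3.91, 3.16, 3.53 and 2.97 CPM in normal, 3.66, 5.49, 4.32 and 4.96 CPM in WT vehicle and 4.35, 4.29, 3.02 and 4.45 CPM in WT PRA libraries. The knockout held 2.30, 3.12, 3.32 and 3.58 CPM after vehicle and 2.39, 3.95 and 4.80 CPM after PRA. PRA and vehicle overlapped in both genotypes. The log2 fold change was -0.19 ± 0.19 in WT (95% interval -0.60 to 0.21, edgeR adjusted p = 0.516) and 0.27 ± 0.21 in the knockout (-0.17 to 0.71, adjusted p = 0.432). The knockout value depended on single libraries, at 0.52 without knockout PRA replicate 1, 0.03 without knockout PRA replicate 3 and 0.15 without knockout vehicle replicate 1. After vehicle all 4 knockout values were below all 4 WT values (3.08 ± 0.554 against 4.61 ± 0.792 CPM, -0.58 ± 0.19), which did not pass over all genes (unadjusted p = 0.00705, edgeR adjusted p = 0.581). Akr1b8 had means of 2.54 ± 0.276 and 2.85 ± 0.857 CPM in WT and 3.14 ± 0.335 and 3.50 ± 0.475 CPM in knockout livers after vehicle and PRA, and its highest library, at 4.10 CPM, was WT PRA replicate 1, which was also the highest for Cbr3. Its log2 fold change was 0.15 ± 0.18 in WT (95% interval -0.22 to 0.52) and 0.15 ± 0.19 in the knockout (-0.23 to 0.54, edgeR adjusted p = 0.584 and 0.622).

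Gclc and Gclm encode the catalytic and modifier subunits of glutamate-cysteine ligase, which makes the rate-limiting step of glutathione synthesis. Gclm varied little, from 115 to 161 CPM over all 19 libraries, with group means of 124 ± 2.62 (WT vehicle) to 154 ± 7.62 CPM (knockout PRA). Its log2 fold change after PRA was 0.11 ± 0.08 in WT (95% interval -0.06 to 0.28, edgeR adjusted p = 0.358) and 0.18 ± 0.09 in the knockout (-0.01 to 0.36, adjusted p = 0.187). The group means thus stayed close together. Gclc varied much more: the normal libraries held 84.7, 88.5, 111 and 67.4 CPM, the WT vehicle libraries 153, 111, 81.0 and 97.9 CPM and the WT PRA libraries 120, 165, 62.4 and 123 CPM. Knockout livers held 158, 224, 117 and 126 CPM after vehicle and 215, 225 and 202 CPM after PRA. The 3 knockout PRA libraries were close together and above every WT library, but overlapped knockout vehicle replicate 2. Gclc was at 214 ± 11.4 CPM in knockout PRA and 118 ± 42.3 CPM in WT PRA livers (log2 fold change 0.86 ± 0.28, 95% interval 0.26 to 1.46), which did not pass in edgeR (adjusted p = 0.115) and passed in DESeq2 (adjusted p = 0.0205) and limma-voom with sample weights (0.0459). Against vehicle its log2 fold change was 0.09 ± 0.27 in WT (edgeR adjusted p = 0.845) and 0.45 ± 0.28 in the knockout (edgeR adjusted p = 0.311).

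Osgin1 encodes an oxidative stress-induced growth inhibitor. It had the highest level per kilobase of exon and, with Cbr3, the widest range, from 52.2 to 335 CPM. Normal libraries held 82.9, 102, 52.2 and 113 CPM, WT vehicle libraries 74.8, 68.6, 120 and 189 CPM and WT PRA libraries 195, 227, 119 and 153 CPM. In the knockout it was at 259, 104, 157 and 133 CPM after vehicle and at 335, 238 and 203 CPM after PRA. PRA and vehicle overlapped in both genotypes, with WT vehicle replicates 3 and 4 and knockout vehicle replicate 1 reaching the PRA range. The log2 fold change against vehicle was 0.62 ± 0.36 in WT (95% interval -0.14 to 1.38, edgeR adjusted p = 0.235) and 0.66 ± 0.38 in the knockout (-0.14 to 1.47, adjusted p = 0.262). With limma-voom and sample weights the WT value was 0.81 and passed (adjusted p = 0.0475).

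**Figure D2:**
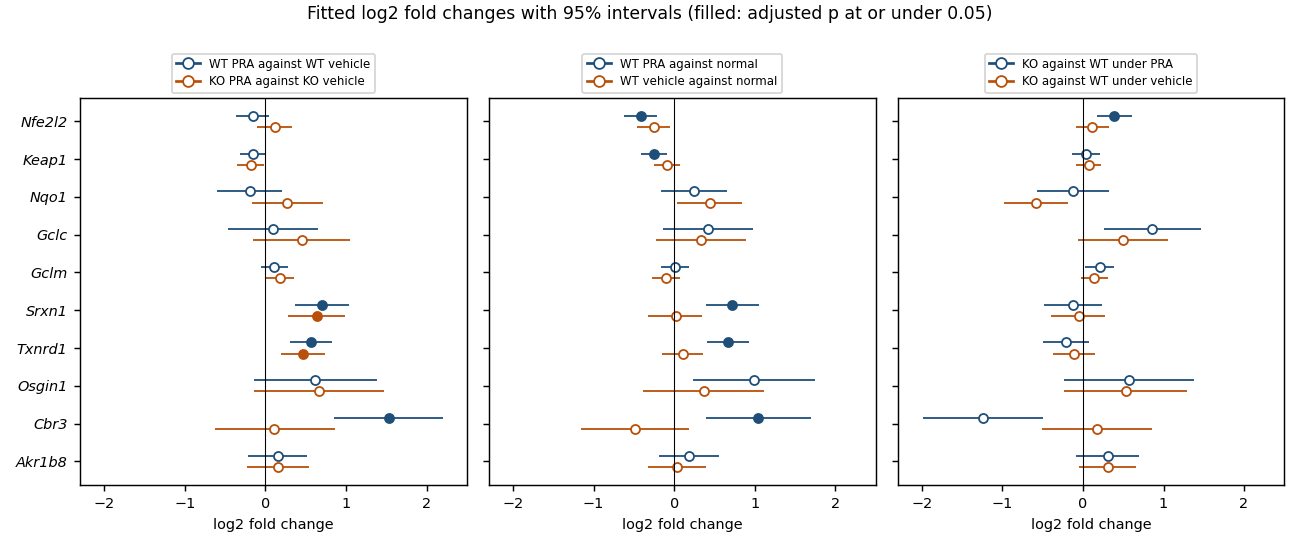
Fitted log2 fold changes (x axis) of the 10 genes (y axis) in 6 comparisons, as points with 95% intervals from edgeR, filled where the adjusted p was at or under 0.05. In the left panel Srxn1 and Txnrd1 are filled in both genotypes and Cbr3 in WT, at 1.53. WT PRA libraries enter one comparison of each panel.

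Nfe2l2 was at 57.1, 71.1, 60.2 and 54.6 CPM in normal, 50.3, 48.9, 47.9 and 56.9 CPM in WT vehicle and 45.0, 48.7, 40.8 and 48.0 CPM in WT PRA livers. The knockout libraries held 46.7, 61.1, 57.8 and 55.2 CPM after vehicle and 55.0, 63.3 and 61.1 CPM after PRA. In WT livers the order was normal, vehicle, PRA, and neighbours in that order overlapped, while PRA and normal did not. Nfe2l2 fell by 0.41 ± 0.10 on the log2 scale in WT PRA against normal livers (60.7 ± 7.26 to 45.6 ± 3.60 CPM, edgeR adjusted p = 0.00328). It did not pass in WT PRA against vehicle (-0.16 ± 0.10, edgeR adjusted p = 0.259) or WT vehicle against normal (-0.25 ± 0.10, edgeR adjusted p = 0.203). In the knockout PRA against vehicle gave 0.12 ± 0.11 (edgeR adjusted p = 0.499).

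Under PRA, Nfe2l2 was 1.31-fold higher in knockout than in WT livers (59.8 ± 4.34 against 45.6 ± 3.60 CPM, log2 fold change 0.39 ± 0.11, edgeR adjusted p = 0.0404), with all 3 knockout values above all 4 WT values. It was the only 1 of the 10 to pass there in edgeR, where 3.80% of all genes tested passed, 1.64% higher and 2.15% lower. This call was not stable. It was lost when any 1 of the 7 libraries was left out (0.34 to 0.44, adjusted p = 0.0545 to 0.145) and without a low-count filter (adjusted p = 0.0620). The interaction of Nfe2l2 was 0.28 ± 0.14 (95% interval -0.02 to 0.57, edgeR adjusted p = 0.614), and after vehicle the genotypes differed by 0.11 ± 0.10 (edgeR adjusted p = 0.987). None of the 10 genes passed between genotypes after vehicle, where 0.0706% of all genes tested passed, 0.0514% higher and 0.0193% lower, 1 of the 10 (Nqo1) had an unadjusted p under 0.05, beside 5.99% of all genes, and DESeq2 and limma-voom called 0.

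Keap1 was the steadiest of the 10, from 58.6 to 78.9 CPM in all libraries. Its group means were 74.5 ± 1.31 CPM in normal, 69.9 ± 5.81 in WT vehicle, 62.7 ± 4.44 in WT PRA, 73.2 ± 3.98 in knockout vehicle and 64.4 ± 2.86 CPM in knockout PRA livers. WT PRA livers had 1.19-fold less Keap1 than normal ones (log2 fold change -0.25 ± 0.08, edgeR adjusted p = 0.0169), and the call was lost without WT PRA replicate 1 (adjusted p = 0.0581) or 2 (0.0565). Against vehicle the values were -0.16 ± 0.08 in WT (edgeR adjusted p = 0.142) and -0.18 ± 0.08 in the knockout, whose groups did not overlap (edgeR adjusted p = 0.133). The knockout value passed with upper quartile scaling (-0.25, adjusted p = 0.0426), under which the median of all genes was -0.07.

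Against normal livers, WT PRA livers differed in 5 of the 10 genes, 3 higher and 2 lower, where 28.4% of all genes tested passed, 13.5% higher and 14.9% lower. This comparison shares its PRA libraries with the one against vehicle. Txnrd1 was 1.59-fold higher (from 85.1 ± 7.58 to 136 ± 8.47 CPM, 0.67 ± 0.13 on the log2 scale, edgeR adjusted p = 0.000368), Srxn1 1.65-fold (0.72 ± 0.16, edgeR adjusted p = 0.00209) and Cbr3 2.06-fold (1.04 ± 0.32, edgeR adjusted p = 0.0169). Cbr3 lost this call without WT PRA replicate 1 (0.61, adjusted p = 0.120). Osgin1 was at 174 ± 47.2 against 87.5 ± 26.7 CPM, with no overlap, and missed the threshold (0.99 ± 0.36, edgeR adjusted p = 0.0505). It passed in DESeq2 (adjusted p = 0.0291), in limma-voom with sample weights (0.00907), with the replicate block (0.0471), with a minimum of 1 CPM in 3 libraries as filter (0.0428) and in a fit of these groups alone (0.0341), and also without normal replicate 4 (0.0488) or WT PRA replicate 3 (0.0401).

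Vehicle injection itself left the 10 genes without a call. None passed in WT vehicle against normal, where 2.00% of all genes tested passed, 1.18% higher and 0.822% lower, and the values ran from -0.48 (Cbr3) to 0.44 (Nqo1) on the log2 scale. Unadjusted p-values were under 0.05 for 2 of the 10, Nfe2l2 and Nqo1, beside 15.2% of all genes, and DESeq2 and limma-voom called 0. The 2 genes that rose in both genotypes after PRA were at 1.01-fold (Srxn1, 95% interval -0.32 to 0.35 on the log2 scale) and 1.08-fold (Txnrd1, -0.15 to 0.36) their normal levels after vehicle.

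Levels between genes were compared per kilobase of exon, with exon lengths from GENCODE M21 (GRCm38), which is not the annotation behind the counts. As means of all libraries, Osgin1 stood at 57.6 CPM per kilobase, Gclc at 35.4 and Gclm at 21.5. Srxn1, Keap1, Txnrd1 and Nfe2l2 lay together at 14.9, 14.7, 14.4 and 14.3. Nqo1 (2.43), Akr1b8 (1.92) and Cbr3 (0.689) were far lower. In that annotation Keap1 shares 510 exon bases with an antisense transcript at 0.210 CPM and Gclm 296 with one at 0.0725 CPM and 244 with a pseudogene at 0.202 CPM, all far below the members' own levels.

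Genes with the most similar profile were sought by the distance between the 5 group means of log2 CPM, each centred on its own mean, among 10033 genes of at least 2 CPM. For Txnrd1 they were Ripk1, Aff4 and Hipk3, at a distance of 0.04 each. Srxn1 came closest to Atp2a2 (0.05), Kansl1 (0.07) and Dcaf13 (0.08), and Nfe2l2 to Klhl25 (0.07), Nav1 (0.07) and Slc6a8 (0.08). For Keap1 the list was Coasy (0.03), Rab8a (0.03) and Atxn3 (0.04). The nearest to Cbr3, Isyna1, was at 0.29, farther than for the others. Cbr3 itself, at a median of 0.711 CPM, lay below the limit of 2 CPM set for candidates. Its centred group means also ran wider, from -0.45 to 0.95, beside -0.13 to 0.12 for Keap1, and the distance was not scaled for this. These distances describe 5 group means and carry no test.

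Another 78 genes tied to the NRF2 pathway, in 8 lists by role, set the 10 in context. Of these, 75 were tested, and Slc7a11, the cystine carrier subunit, Gpx2 and Mgst2 were too low. In WT PRA against vehicle 16 of the 75 were higher and 1 lower, where 9.74% of all genes tested were higher and 12.3% lower. The median log2 fold change was 0.11, beside -0.03 over all genes. In the knockout 12 were higher and 0 lower (median 0.14), where 7.96% of all genes tested were higher and 8.38% lower. The 16 became 10 when no low-count filter was used, where 1271 of 27052 genes tested were higher (1516 of 15570 with the filter). None of the 75 passed the interaction, where 0.475% of all genes tested passed. The lists were drawn up with earlier results of these data known, so their counts are descriptions.

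The list of other NRF2 regulators, which holds factors that bind its element and proteins that act on KEAP1 or NRF2, had the most calls. Of its 10 genes, 7 were higher in WT (median 0.39) and 6 in the knockout (median 0.45), where 9.74% and 7.96% of all genes tested were higher. Maff, a small MAF partner, was at 4.67 ± 2.12 CPM after vehicle and 19.8 ± 3.04 CPM after PRA in WT (4.27-fold, edgeR adjusted p = 0.000297), and at 3.94 ± 1.31 and 28.2 ± 11.1 CPM in the knockout (7.19-fold, edgeR adjusted p = 5.04e-05). Bach1, the repressor, rose 1.92-fold in WT (13.6 ± 1.54 to 26.2 ± 3.46 CPM, edgeR adjusted p = 0.000295) and 1.93-fold in the knockout (11.5 ± 1.69 to 22.2 ± 2.14 CPM, edgeR adjusted p = 0.000770). Bach2, its relative, rose 2.60-fold and 1.81-fold (edgeR adjusted p = 0.000223 and 0.0197), the knockout call being lost without knockout vehicle replicate 1 or 4 or knockout PRA replicate 3 (adjusted p = 0.0552, 0.0583 and 0.0556). A further 3 rose in both genotypes, named here after their values were seen: Mafk by 0.75 and 0.97, Sqstm1, which encodes the autophagy receptor p62 that binds KEAP1, by 0.54 and 0.53, and Cul3, the ligase scaffold, by 0.25 and 0.26 on the log2 scale. The edgeR adjusted p-values were 0.00151 and 0.000410 for Mafk, 0.000385 and 0.00130 for Sqstm1 and 0.0195 and 0.0312 for Cul3.

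**Figure D3:**
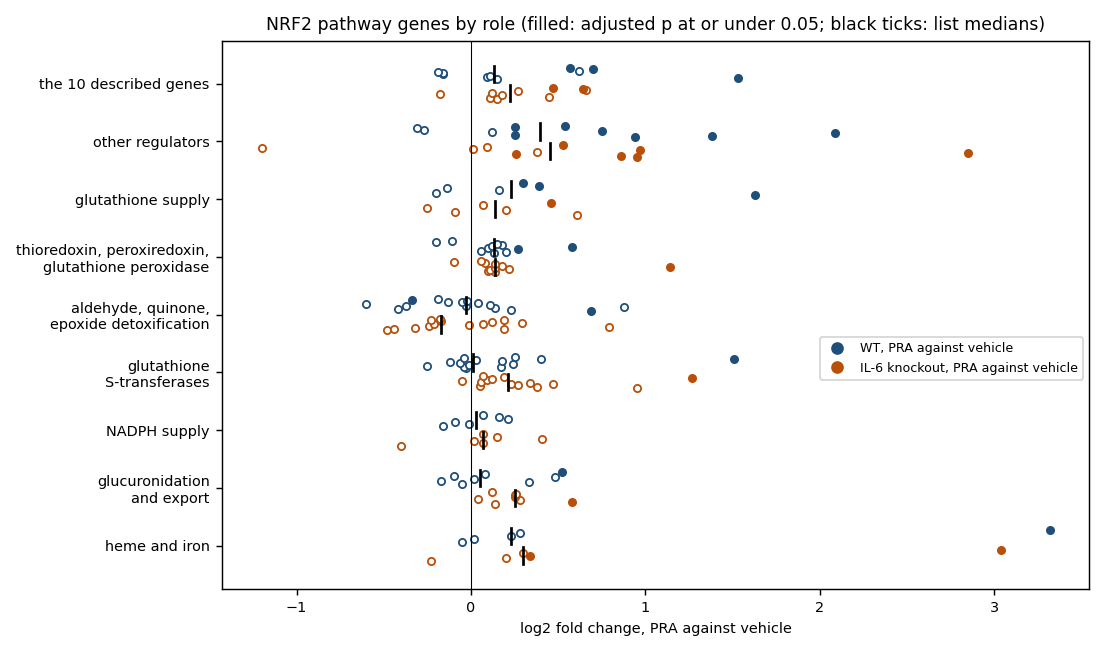
Log2 fold changes of PRA against vehicle (x axis) in WT and IL-6 knockout livers for the 10 described genes and 8 lists of other NRF2 pathway genes (y axis). Each point is a gene, filled where the adjusted p was at or under 0.05, and black ticks are list medians. Filled points are most frequent among the other regulators, 7 of 10 in WT, where 9.74% of all genes tested were higher. They are absent from the NADPH supply list.

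The remaining lists had fewer calls. In WT and knockout PRA against vehicle, the counts of higher genes were 3 and 1 of 6 for glutathione supply, 2 and 1 of 11 for thioredoxin, peroxiredoxin and glutathione peroxidase genes, and 1 and 0 of 15 for aldehyde, quinone and epoxide detoxification, which also had 1 lower gene in WT. They were 1 and 1 of 14 glutathione S-transferases, 0 and 0 of 6 NADPH supply genes, 1 and 1 of 8 glucuronidation and export genes and 1 and 2 of 5 heme and iron genes. Over all genes tested, 9.74% were higher in WT and 7.96% in the knockout. These small counts only describe the lists. List medians lay between -0.03 and 0.23 in WT and between -0.17 and 0.30 in the knockout. Hmox1, the heme oxygenase that BACH1 represses, was the exception in size: 9.98-fold higher in WT (19.6 ± 3.01 to 196 ± 86.0 CPM, edgeR adjusted p = 3.07e-06) and 8.23-fold in the knockout (23.7 ± 8.37 to 195 ± 66.7 CPM, edgeR adjusted p = 1.70e-05).

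Single genes of these lists passed at smaller sizes in WT PRA against vehicle. Sesn2, a stress-induced sestrin, rose by 0.58 in WT and 1.14 in the knockout on the log2 scale (edgeR adjusted p = 0.00353 and 1.51e-05), and was higher in knockout than in WT livers under PRA (21.6 ± 1.70 against 13.8 ± 1.63 CPM, edgeR adjusted p = 0.0114). Gstp2, a glutathione S-transferase with a near-identical copy in Gstp1, rose 2.85-fold in WT (1.75 ± 0.693 to 5.05 ± 1.99 CPM, edgeR adjusted p = 0.00501), where the groups overlapped. It rose 2.40-fold in the knockout (0.0280). That call was lost without knockout vehicle replicate 1, 2 or 3 or knockout PRA replicate 1 or 2 (0.0516 to 0.130), and without a low-count filter (0.0741). Gstp1, at 867 ± 237 CPM after vehicle and 1147 ± 278 CPM after PRA in WT, did not pass in WT (0.40, edgeR adjusted p = 0.162) or the knockout (0.12, 0.766). Slc3a2, the heavy chain shared with the cystine carrier, rose 1.23-fold and 1.37-fold (edgeR adjusted p = 0.0119 and 0.00119), the WT call being lost without WT PRA replicate 1 (0.0531). In WT livers Chac1, which degrades glutathione, rose 3.09-fold (edgeR adjusted p = 0.0225), the 5-oxoprolinase Oplah 1.31-fold (0.0467), the peroxiredoxin Prdx1 1.21-fold (0.0342), Adh7 1.62-fold (0.0497) and Ugt2b35 1.43-fold (0.0271), while the quinone reductase Nqo2 fell by 0.34 on the log2 scale (0.0205). In the knockout none of the 6 passed: the log2 values were 0.61 for Chac1 (edgeR adjusted p = 0.471), 0.07 for Oplah (0.799), 0.22 for Prdx1 (0.139), -0.48 for Adh7 (0.253), 0.12 for Ugt2b35 (0.702) and -0.23 for Nqo2 (0.183). Chac1, whose knockout groups did not overlap, passed there in a fit of only the groups compared (0.61, edgeR adjusted p = 0.0465). Nqo2 passed in the knockout without knockout vehicle replicate 1 (-0.33, edgeR adjusted p = 0.0245). None of the 6 WT calls was stable. Chac1 lost it without WT vehicle replicate 2 or 4 or WT PRA replicate 3 (adjusted p up to 0.0657), and Nqo2 without WT vehicle replicate 2 or 3 or WT PRA replicate 3 or 4 (up to 0.0595). Ugt2b35 lost it without WT vehicle replicate 3 or 4 or WT PRA replicate 2 or 4 (up to 0.0942), and Prdx1 without WT vehicle replicate 1 or 2 or WT PRA replicate 1, 2 or 4 (up to 0.0898). Oplah lost it without WT vehicle replicate 2 or 3 or any WT PRA library (up to 0.141), and Adh7 without WT vehicle replicate 2, 3 or 4 or WT PRA replicate 2, 3 or 4 (up to 0.167). Oplah was also lower in knockout than in WT livers under PRA (-0.56, edgeR adjusted p = 0.0421). Among the thioredoxin reductases, Txnrd2 (mitochondrial) and Txnrd3 were lower in WT PRA than in normal livers (log2 fold change -0.31 and -0.36, edgeR adjusted p = 0.00293 and 0.0455). Against vehicle neither passed (-0.20 and -0.11, edgeR adjusted p = 0.0517 and 0.582). Both were named after their values were seen.

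Markers of other liver and blood cells were examined in the same libraries. In WT PRA against vehicle 9.74% of all genes tested were higher and 12.3% lower. The 8 neutrophil markers summed to 11.4 to 13.6 CPM in WT PRA and 1.60 to 3.47 CPM in WT vehicle libraries, with 6 of the 7 tested higher and Ly6g at 0 in all normal and WT vehicle libraries. In the knockout PRA libraries they summed to 13.4, 7.85 and 4.74 CPM and in knockout vehicle replicates 2, 3 and 4 to 4.93, 5.38 and 5.18 CPM, with replicate 1 higher than these 3, so the groups overlapped. Kupffer cell markers summed to 278 to 408 CPM in WT PRA and 139 to 294 CPM in WT vehicle libraries, with 1 of 7 higher, and of the 6 sinusoidal endothelial markers 5 were lower and 1 higher. Hepatocyte markers summed to 98561 to 105276 CPM in WT PRA and 74655 to 96660 CPM in WT vehicle libraries, with 1 of 7 higher, and to 110393 to 145873 CPM in knockout PRA and 96477 to 101828 CPM in knockout vehicle libraries. Stellate cell and fibroblast markers had 3 of 7 lower in WT PRA than in vehicle (sums of 96.7 to 205 against 162 to 202 CPM), and B cell markers 2 of 5 lower (4.51 to 9.96 against 3.74 to 12.7 CPM). Monocyte markers had 1 of 6 higher (28.9 to 50.4 against 23.5 to 42.1 CPM), and none of the 4 T and NK cell markers tested passed. Sums of Kupffer cell, monocyte, stellate cell and B cell markers overlapped between WT PRA and vehicle. In lists this short, single calls lie near the background. The part of these cells in the changes of Srxn1, Txnrd1 and Cbr3 was not tested.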

How the data were processed

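Poly(A) RNA libraries of mouse liver were sequenced as pairs of 150-base reads. The authors deposited raw counts per Ensembl gene, made, per the submitters' processing notes, with tools that include HTSeq 0.11.3, HISAT2 2.2.1 and SAMtools 1.13, on build GRCm39. No source used here gives the annotation release or strand setting, so reads of antisense or overlapping genes cannot be told apart. Groups and replicate numbers came from sample titles. Gene counts of all 19 single-library files equalled those of the series table. Summary lines (28.29% to 33.05% of a library) stayed out of totals.

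Counts were analysed in edgeR 4.0.16 (R 4.3.3): filterByExpr, TMM, and 1 quasi-likelihood fit with a mean per group and robust dispersion over 19 libraries, with 7 contrasts, Benjamini-Hochberg adjustment over 15570 genes and a threshold of 0.05. The procedure was tested on simulated data. Alternatives were RLE and upper quartile scaling, 2 other filters, DESeq2 1.42.0, limma-voom (limma 3.58.1), a replicate block, fits of only the groups compared, and leaving out each library. Replicate libraries of a group differed far beyond sampling noise (chi-square at least 20.16 per degree of freedom). No library thus looked like another of its group deposited again, which does not show separate animals. Libraries of different groups were not compared in this way. All 10 members were named by rule, with up to 3 genes per other list past the threshold in WT PRA against vehicle or the interaction. Members and lists were chosen with earlier results of these data known. Gene symbols matched 52083 of 55416 lines, and promoter windows came from RefSeq (GRCm38.p6).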

Additional observations from a re-analysis of the deposited data

Results flagged for a closer look

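Among 40 sets of 4 libraries (10 genes in the 4 groups of that size), 2 held a library far from the rest, and chance alone flags about 1 in 20 such sets. Nqo1 was at 3.02 CPM in WT PRA replicate 3, below the other WT PRA libraries. Gclm was at 115 CPM in normal replicate 4, below the other normal libraries. The group of 3 was not examined.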

How the results depend on the processing

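The Srxn1, Txnrd1 and Cbr3 calls in WT PRA against vehicle held under all 8 settings other than edgeR as described and without any 1 library. DESeq2 called 176 genes in the interaction (74 in edgeR), 927 in knockout against WT under PRA (591), 56 under vehicle (11) and 655 in WT vehicle against normal (311). Limma-voom called 898 and 23 under PRA and vehicle and 701 in WT vehicle against normal, and fits of only the groups compared called 7 under vehicle and 154 in WT vehicle against normal. Of the 10 genes, DESeq2 called 3 and limma-voom 2 in knockout against WT under PRA, where edgeR called 1. These counts stand beside 927, 898 and 591 of the 15570 genes tested. Among other pathway genes in WT PRA against vehicle, 10 were higher without a low-count filter (16 in edgeR as described). Over all genes 1271 of 27052 tested were higher without that filter, beside 1516 of 15570. With upper quartile scaling, the 1 CPM filter, DESeq2 and limma-voom 2 of the pathway genes were lower (1 in edgeR). Over all genes 2399, 1799 (of 12294 tested), 1981 and 2277 were lower in those settings, beside 1921 in edgeR. Upper quartile scaling moved the share of higher calls from 44.1% to 34.0% in WT PRA against vehicle, from 48.7% to 35.3% in knockout PRA against vehicle and from 47.5% to 38.6% in WT PRA against normal.

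Signs turned only in values that did not pass. The Akr1b8 interaction was -0.01 with RLE and upper quartile scaling, -0.00 in DESeq2 and -0.03 with the replicate block. Gclm in WT PRA against normal was -0.05 with upper quartile scaling and -0.00 with the 1 CPM filter, and Oplah in the knockout was -0.00 with upper quartile scaling. Limma-voom gave -0.02 for Cbr3 in knockout PRA against vehicle, -0.03 for the Osgin1 interaction, 0.03 for Txnrd1 in knockout against WT under vehicle and -0.04 for Txnrd1 in WT vehicle against normal.

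Leaving out each library in turn gave 1671 to 2499 genes in knockout PRA against vehicle (2544 with all), 314 to 489 in knockout against WT under PRA, 2 to 15 under vehicle, 128 to 299 in WT vehicle against normal and 37 to 95 in the interaction. Calls among the 10 ran from 0 to 2 in the knockout response, 0 to 1 in knockout against WT under PRA and 3 to 6 in WT PRA against normal. Over all genes these fits called 1671 to 2499, 314 to 489 and 3629 to 3928, of 15504 to 15931 tested. Lower calls among other pathway genes ran from 0 to 2 in WT and 0 to 1 in the knockout response. Over all genes lower calls ran from 1529 to 1793 and from 758 to 1247. Log2 values that crossed 0 were, in WT PRA against vehicle, Gclc (-0.12 to 0.30) and Akr1b8 (-0.07 to 0.24), and against normal Gclm (-0.06 to 0.04) and Akr1b8 (-0.04 to 0.27). In WT vehicle against normal they were Srxn1 (-0.04 to 0.07), Txnrd1 (-0.05 to 0.21) and Akr1b8 (-0.04 to 0.11), and in the interaction Keap1 (-0.08 to 0.01), Srxn1 (-0.32 to 0.09), Osgin1 (-0.32 to 0.36) and Akr1b8 (-0.11 to 0.22). Between genotypes they were Txnrd1 (-0.21 to 0.04) and Srxn1 (-0.11 to 0.00) under vehicle, and Srxn1 (-0.37 to 0.03) and Nqo1 (-0.36 to 0.11) under PRA. In knockout PRA against vehicle they were Cbr3 (-0.21 to 0.39), Oplah (-0.09 to 0.15) and Ugt2b35 (-0.11 to 0.29). The cause of these changes was not tested.

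Replicate numbers did not pair the libraries: same-numbered libraries of 2 groups correlated by -0.21 to 0.18 in their deviations. With the replicate block, Osgin1 passed in WT PRA against normal (adjusted p = 0.0471) and Oplah and Prdx1 did not pass in WT PRA against vehicle (0.0610 and 0.0539). Depth limits Cbr3 most, and 3 to 4 libraries per group limit all comparisons.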
